A study of Mus musculus with 5 samples.

Results

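The collagen genes of the mouse retina are described here, as they were read by RNA sequencing 7 days after optic nerve crush (ONC). They were chosen by their gene symbols alone, as all genes named Col, a type number, a and a chain number, and 44 of the 25655 symbols in the count table matched. They were grouped into 11 fibrillar collagens, 8 basement membrane collagens (type IV, type XV and type XVIII) and 25 other collagens. The family was proposed with earlier differences between the treatment groups already known, so those differences are given as a description, and p-values in them only define which genes passed the study's threshold. Each sample was the whole injured retina of a wildtype C57BL/6 mouse, 8 to 10 weeks old, and all of the retinas had undergone ONC, so there was no uninjured group. Of the mice, 3 received DMSO, the vehicle (replicates 1, 2 and 3), and 2 received Sorbinil, an inhibitor of aldose reductase, injected intraperitoneally at 10 mg/kg each day beginning on the day ahead of the crush (replicates 1 and 3). The authors excluded a further Sorbinil retina after principal component analysis, and it was not analysed here. Replicates are separate samples of a group by their labels, and nothing in the labels pairs them across groups.

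Collagens are matrix proteins made of a chain trio wound into a triple helix, which needs a glycine at every 3-residue step. Fibrillar collagens form cables through an almost unbroken helix, while type IV collagens have an interrupted helix and assemble into the flexible sheet of basement membranes. In the eye, type IV and type XVIII collagens lie in the inner limiting membrane and around retinal vessels, type II and type IX collagens are the fibril collagens of the vitreous, and type VIII collagen is known from Descemet's membrane and vessel walls. In RNA from a whole tissue, fewer cells of a type and less RNA per cell cannot be told apart.

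The groups of collagens differ in the genes themselves, and 7 stretches of 54 coding bases illustrate this. The stretches were chosen inside a repeat for fibrillar genes and at a break for basement membrane genes. They are therefore examples and no test of the difference. They are from GRCm39, read 5′ to 3′ on the coding strand, with every in-frame glycine codon in capitals. Col2a1, Col5a3, Col1a1 and Col3a1 were shown as the fibrillar genes that the results below turn on, and each stretch is a whole 54-base exon inside the longest repeat. Col18a1, Col4a1 and Col4a3 were shown as basement membrane genes at a break between 2 repeats. It was the first short break whose 54 bases lay inside a single exon, and earlier breaks without this were passed over.
Col2a1: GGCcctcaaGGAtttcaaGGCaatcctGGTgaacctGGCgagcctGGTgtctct
Col5a3: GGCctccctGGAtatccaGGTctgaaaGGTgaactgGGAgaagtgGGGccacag
Col1a1: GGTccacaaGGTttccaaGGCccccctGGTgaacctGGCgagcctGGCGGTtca
Col3a1: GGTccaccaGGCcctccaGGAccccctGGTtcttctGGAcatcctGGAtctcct
Col18a1: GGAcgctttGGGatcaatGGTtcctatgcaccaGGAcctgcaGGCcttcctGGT
Col4a1: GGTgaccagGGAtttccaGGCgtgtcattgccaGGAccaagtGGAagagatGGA
Col4a3: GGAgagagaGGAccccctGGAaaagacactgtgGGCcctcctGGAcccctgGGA
In the fibrillar exons the capitals recur at 9-base steps from end to end, with an added glycine codon beside the last step in Col1a1. In the basement membrane stretches the step is broken in the middle, where the lower-case run between glycine codons is longer. The stretches are exon 10 of 54 of Col2a1 (chr15:97894370-97894423, minus strand), exon 15 of 67 of Col5a3 (chr9:20712364-20712417, minus strand), exon 8 of 51 of Col1a1 (chr11:94830730-94830783, plus strand) and exon 6 of 51 of Col3a1 (chr1:45364520-45364573, plus strand). The other stretches lie in exon 12 of 41 of Col18a1 (chr10:76913560-76913613, minus strand), exon 21 of 52 of Col4a1 (chr8:11285147-11285200, minus strand) and exon 21 of 52 of Col4a3 (chr1:82646700-82646753, plus strand).

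Across the whole coding sequence, the longest unbroken glycine repeat held a median of 338 triplets in the 11 fibrillar genes, with a range of 216 to 344. It held a median of 41 triplets (30 to 66) in the 8 basement membrane genes and 52 (23 to 113) in the 25 other genes. Fibrillar genes carried 2 or 3 repeats of at least 6 triplets, compared to 10 to 27 in basement membrane genes. Exon sizes followed the same division. The sizes counted were the fibrillar ones, and fibrillar collagens are known by their almost unbroken helix. Both comparisons therefore describe the groups and are no test of them. Between 70.3% and 86% of the inner coding exons of fibrillar genes were 45 or 54 bases long, 99 bases (their sum) or 2 or 3 times 54 bases, compared to 2.63% to 25.6% in basement membrane genes and 6.35% to 60.7% in 22 of the other genes. Col8a1, Col8a2 and Col10a1 have no inner coding exons and are left out of the last range. Among the fibrillar genes, Col24a1 and Col27a1 stood apart with 216 and 217 triplets. Among the other genes, the type IX chains Col9a1, Col9a2 and Col9a3 and also Col22a1 had the longest repeat, at 113 triplets.

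**Figure D1:**
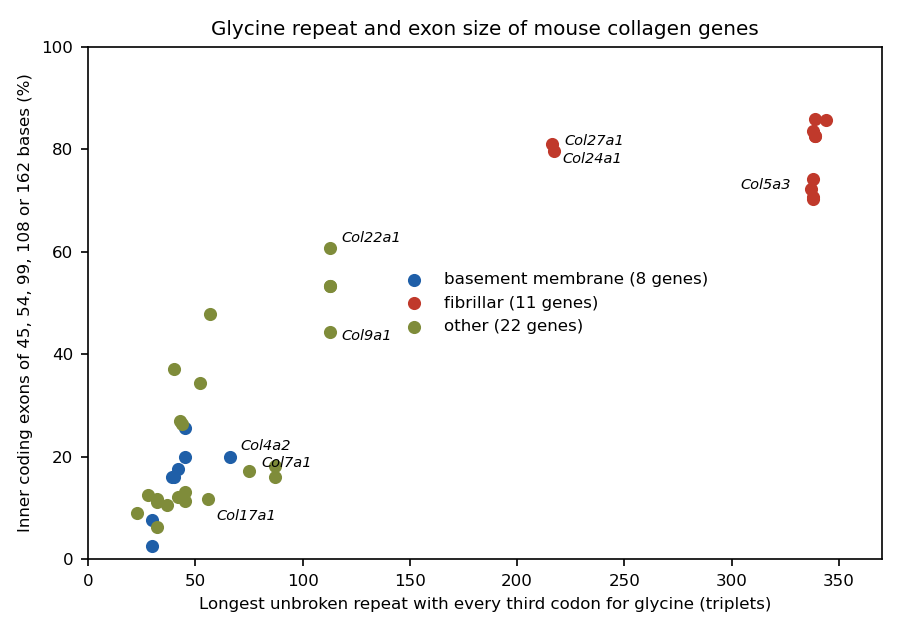
Each point is a collagen gene, with the longest unbroken glycine repeat (triplets) on the horizontal axis and the share of inner coding exons of those fibrillar sizes (%) on the vertical axis, coloured by group. The 11 fibrillar genes lie at 216 triplets or more and above 70%, and the 8 basement membrane genes at 66 triplets or fewer and below 26%.

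Totals ran from 56096541 to 90288552 counts per retina, and no pair of retinas was alike within sampling noise. Sorbinil replicate 1 stood apart from the other retinas before any collagen was looked at. In it, all 12 Müller glia genes lay below every DMSO retina (median log2 difference from the DMSO mean of -1.44) and all 14 rod genes lay above (0.54), beside 41.7% and 43.4% of all genes. Sorbinil replicate 3 had 0.018 and -0.34 for these lists. The lens and ciliary list was high in DMSO replicate 3 and Sorbinil replicate 3, with medians of 1.66 and 1.34 against the DMSO mean. The pigment epithelium list was high in DMSO replicate 3 (0.82). It was near the DMSO mean in Sorbinil replicate 3 (0.011), above DMSO replicates 1 and 2 (-0.29 and -0.43). Both number 3 retinas had almost no counts of 4 Y-linked genes (2 and 4, against 16268 to 17064 in the other retinas), so that sex and the lens material cannot be told apart. Mitochondrially encoded genes took 1.94% to 2.66% of counts with DMSO and 3.7% and 4.05% with Sorbinil. The collagen results below are therefore given by retina, and fitted values also without Sorbinil replicate 1 where that retina turned or moved them.

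Of the 44 collagens, 40 passed the filter on low counts, which were all 11 fibrillar, all 8 basement membrane and 21 of the 25 other collagens. Col10a1 (0 to 4 counts per retina), Col13a1 (1 to 8), Col28a1 (0 to 4) and Col6a5 (0 to 7) did not pass. Collagens were a small part of the retinal RNA, at 0.0303%, 0.0276% and 0.0287% of counts in DMSO replicates 1, 2 and 3, 0.0117% in Sorbinil replicate 1 and 0.0347% in Sorbinil replicate 3. Scaled by TMM, this was 283.2, 267.2 and 289.2 CPM (counts scaled to library size) with DMSO and 137 and 324.8 CPM with Sorbinil. The Sorbinil retinas therefore lay on either side of the DMSO retinas, which were close together.

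Levels between genes were compared as CPM per kilobase of exon, averaged over the 5 retinas. Col23a1, which encodes a transmembrane collagen, had the highest level in every retina, at 11.4, 9.37 and 8.20 with DMSO and 3.09 and 10.2 with Sorbinil. Col18a1, the precursor of endostatin, had 4.91, 4.36 and 4.2 with DMSO and 1.78 and 4.83 with Sorbinil. Col2a1, the main chain of vitreous fibrils, had 4.30, 4.46 and 3.53 with DMSO and 1.53 and 4.63 with Sorbinil. In each of them Sorbinil replicate 1 was far below the other 4 retinas, which lay close together. Col18a1 and Col2a1 did not differ beyond their spread, with means of 4.01 ± 1.29 and 3.69 (SD over 5 retinas for the first), and exchanged places between retinas. Col23a1, Col2a1 and Col18a1 together took 50.3%, 47.9% and 38.4% of all collagen counts with DMSO and 32.9% and 42.4% with Sorbinil. The next mean levels were 2.88 for Col9a1, 2.28 for Col8a2, 2.21 for Col4a2, 1.81 for Col9a2, 1.5 for Col8a1, 1.47 for Col4a1 and 1.11 for Col9a3. Each of these neighbours overlapped over the retinas. By coding length instead of exon length, Col23a1 remained at rank 1, Col18a1 moved from rank 2 to 4 and Col8a1 from rank 8 to 6.

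**Figure D2:**
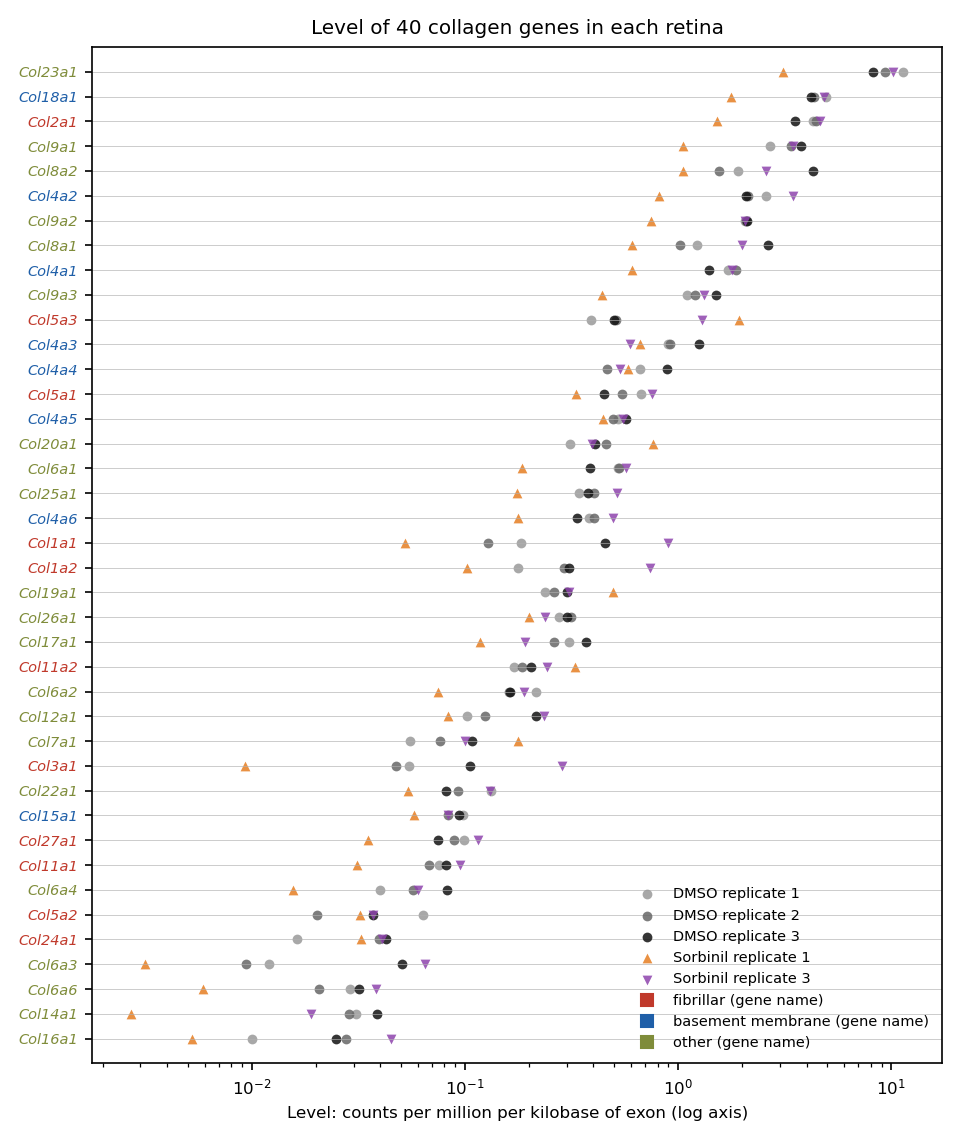
Each row is a collagen gene that passed the filter, in order of mean level, and each point is its level in a retina (CPM per kilobase of exon, log axis), with gene names coloured by group. Col23a1 is the highest in all 5 retinas, and the orange triangle of Sorbinil replicate 1 is the lowest point in 31 of the 40 rows.

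The comparison of Sorbinil with DMSO asked which genes changed when aldose reductase was inhibited after ONC. At the study's threshold (unadjusted p of at most 0.1 and at least 2-fold in edgeR's quasi-likelihood fit over all 14992 genes tested), 2 of 40 collagens were lower with Sorbinil, Col14a1 and Col17a1. Over all genes tested 1.35% were lower. A single collagen, Col5a3, was higher, compared to 0.36% of all genes. None had an adjusted p under 0.05 by edgeR, and neither did any other gene tested. By edgeR, 3 had an unadjusted p under 0.05 (751 of 14992 genes tested did). By the DESeq2 Wald test, 1 (Col5a3) had an adjusted p under 0.05, compared to 21 of the 14992 genes. Both Sorbinil retinas lay below every DMSO retina for 5 of 40 collagens (12.5%, against 10.5% of all genes), and above for 3 of 40 (against 12.8%). With 2 against 3 retinas an exact permutation test cannot go below 0.1. The called counts of 2 and 1 genes are too few to judge against the shares of all genes. The count below DMSO in both Sorbinil retinas was near its share, at 12.5% against 10.5%. None of these counts is a result about collagens as a family.

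What set the collagens apart from DMSO differed by retina. Sorbinil replicate 1 lay below every DMSO retina for 32 of 40 collagens, compared to 41.7% of all genes, and above for 5 (43.4% of all genes). Sorbinil replicate 3 lay below every DMSO retina for 5 (29.1% of all genes) and above for 18 (27.3% of all genes). The median log2 difference from the DMSO mean over the 40 collagens was -1.24 in Sorbinil replicate 1. It was 0.24 in Sorbinil replicate 3. All genes tested had 0.018 and -0.007 in these retinas. By group, the medians in Sorbinil replicate 1 were -1.20 for fibrillar, -0.84 for basement membrane and -1.33 for other collagens. In Sorbinil replicate 3 they were 0.41, 0.087 and 0.14. In the fit of both retinas, these opposite values gave medians of 0.19, -0.32 and -0.33, beside -0.0078 for all genes. Without Sorbinil replicate 1, 33 of 40 collagens had a higher fitted value than DMSO, with medians of 0.41, 0.096 and 0.091. Without Sorbinil replicate 3, 34 of 40 had a lower value, with medians of -1.25, -0.87 and -1.41, and 23 passed the threshold as lower (17.4% of all genes did so) and 2 as higher (1.62% did so). Without Sorbinil replicate 1 none passed as lower (0.912% of all genes did so) and 4 passed as higher (0.521% did so), which were Col5a3, Col1a1, Col1a2 and Col3a1. Of the 40 collagens, 21 changed the sign of the fitted value when Sorbinil replicate 1 was left out.

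Within the retinas with Y-linked counts, 33 of 40 collagens were lower in Sorbinil replicate 1 than in DMSO replicates 1 and 2, with a median of -1.14 on the log2 scale. Within the retinas without them, 17 of 40 were lower in Sorbinil replicate 3 than in DMSO replicate 3, with a median of 0.20. The sign was the same in both for 16 of 40 collagens, compared to 5336 of the 14992 genes tested. Each of these contrasts rests on a lone Sorbinil retina and carries no test. With sex as a term in the fit, added after seeing the data, 2 collagens were called lower (1.62% of all genes were) and 1 higher (0.427% of all genes were), again Col14a1, Col17a1 and Col5a3.

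**Figure D3:**
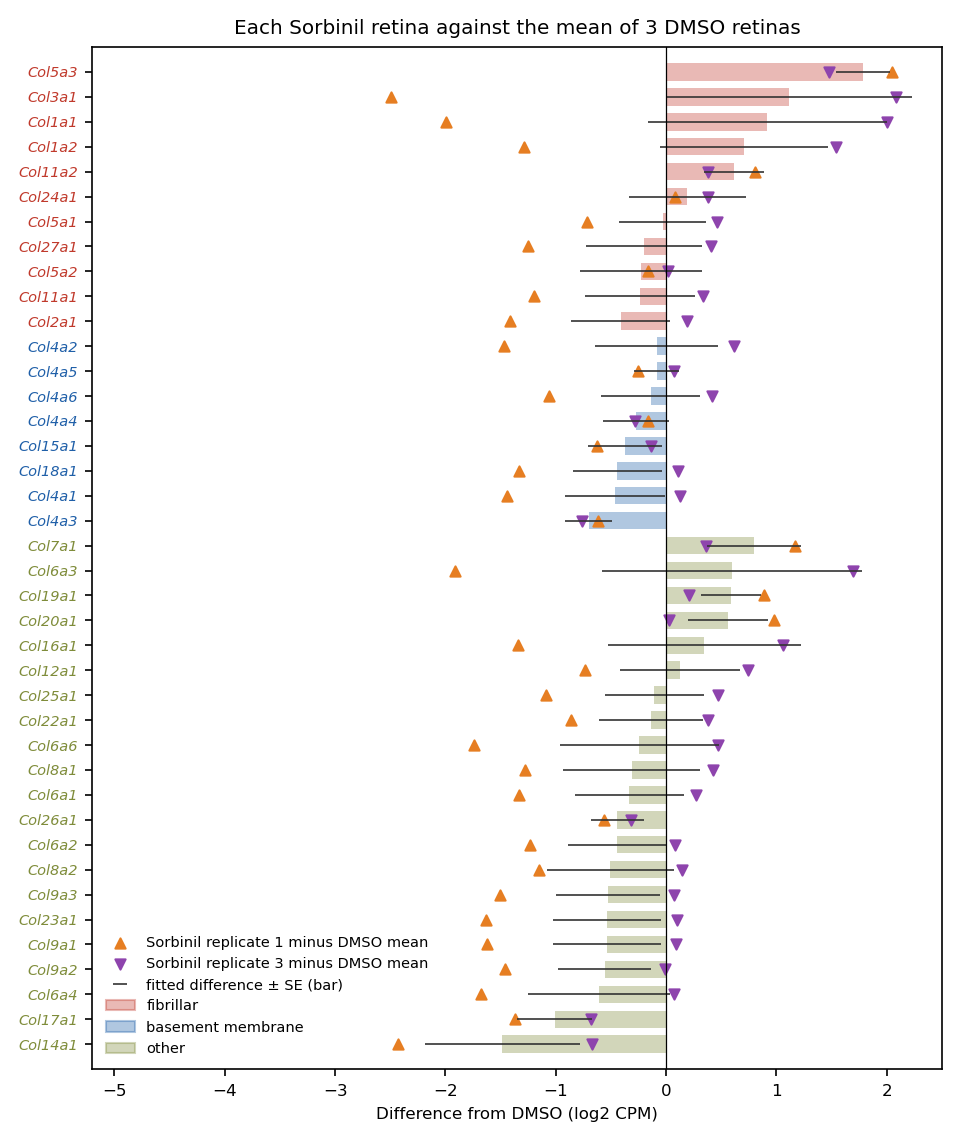
For 40 collagens, points give each Sorbinil retina minus the mean of the 3 DMSO retinas (log2 CPM), and bars give the fitted difference with its standard error, coloured by group. The points of Sorbinil replicate 1 lie mostly left of 0 and those of Sorbinil replicate 3 mostly at or right of 0, and Col5a3, Col4a3, Col17a1 and Col14a1 are among the genes with both points on the same side.

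Among the fibrillar collagens, Col5a3 encodes the alpha 3 chain of type V collagen, a minor fibril collagen (ENSMUSG00000004098, GRCm39 chr9:20681337-20726418, minus strand; its glycine repeat is shown above). It measured 2.69, 3.52 and 3.44 CPM in DMSO replicates 1, 2 and 3 and 13.2 and 8.91 CPM in Sorbinil replicates 1 and 3. Both Sorbinil retinas were far above all DMSO retinas, and Sorbinil replicate 1 was the highest, in contrast to most collagens. The log2 fold change was 1.79 (standard error 0.25), a 3.45-fold higher level. Its unadjusted p was 0.000441 and its adjusted p 0.758 by edgeR's quasi-likelihood test, and the adjusted p was 1.24e-06 by the DESeq2 Wald test. It rested on 260, 281 and 191 reads in the DMSO retinas and on 696 and 605 reads in the Sorbinil retinas. Leaving out Sorbinil replicate 1 gave 1.49, and leaving out replicate 3 in its place gave 2.05. The difference was 2.10 within the retinas with Y-linked counts and 1.37 within those without. The gene Rdh8, which lies 3381 bases away on the opposite strand and was named for this position, had 67.9, 69.3 and 79.9 CPM with DMSO and 117.1 and 59.6 CPM with Sorbinil. It was thus high only in Sorbinil replicate 1, and its part in the Col5a3 value was not tested.

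The partners of Col5a3 did not share its pattern. Col5a1, the chain common to type V trimers, had 5.86, 4.77 and 3.91 CPM with DMSO and 2.89 and 6.59 CPM with Sorbinil, so that the Sorbinil retinas lay on either side, and its fitted value of -0.03 was 0.45 without Sorbinil replicate 1. Col5a2 had low values of 0.71, 0.23 and 0.41 CPM with DMSO and 0.36 and 0.41 CPM with Sorbinil, within the DMSO range. Per length, the ratio of Col5a3 to Col5a1 was 0.58, 0.93 and 1.12 with DMSO and 5.80 and 1.72 with Sorbinil. The groups did not overlap, but neither did they for Col5a3 itself, so the ratio is no separate result. Col11a2, a chain of type XI collagen that was singled out after its values were seen, had 1.26, 1.38 and 1.51 CPM with DMSO and 2.44 and 1.80 CPM with Sorbinil. It did not pass the threshold, at a log2 fold change of 0.61 (standard error 0.27), or 0.39 without Sorbinil replicate 1, and the groups did not overlap. Its partner Col11a1 had 0.96, 0.86 and 1.04 CPM with DMSO and 0.40 and 1.21 CPM with Sorbinil. The ratio of Col11a1 to Col11a2 per length was 0.36 to 0.44 in the DMSO retinas and Sorbinil replicate 3, and 0.095 in Sorbinil replicate 1.

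Col2a1, the most abundant fibrillar collagen, had 40.3, 41.7 and 33.0 CPM with DMSO and 14.3 and 43.4 CPM with Sorbinil. Sorbinil replicate 1 was far below and Sorbinil replicate 3 the highest. The fitted log2 difference was -0.41 (standard error 0.45), which did not pass the threshold. Leaving out Sorbinil replicate 1 gave 0.19, and leaving out Sorbinil replicate 3 gave -1.42.

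Col1a1 and Col1a2, the chains of type I collagen, and Col3a1, the type III collagen of vessel walls and loose connective tissue, had the largest standard errors of the 11 fibrillar collagens. Col1a1 had 1.20, 0.84 and 2.99 CPM with DMSO and 0.34 and 5.89 CPM with Sorbinil, Col1a2 had 2.24, 3.70 and 3.91 CPM and 1.29 and 9.36 CPM. Col3a1, which was named after its values were seen, had 0.56, 0.49 and 1.08 CPM with DMSO and 0.095 and 2.92 CPM with Sorbinil. For each of these genes the Sorbinil retinas were the lowest and the highest of the 5. The fitted log2 differences were 0.92 (standard error 1.08), 0.70 (0.76) and 1.11 (1.11), none past the threshold. Without Sorbinil replicate 1 they were 1.85, 1.53 and 2.08, and without Sorbinil replicate 3 they were -2.26, -1.34 and -2.85. Lum, which encodes a collagen-binding proteoglycan of fibroblasts and did not pass the filter, had 3, 2 and 6 reads in the DMSO retinas, none in Sorbinil replicate 1 and 17 in Sorbinil replicate 3. Dcn, another fibroblast proteoglycan, had 0.22, 0.45 and 0.97 CPM with DMSO and 0.46 and 0.91 CPM with Sorbinil. Over the fibroblast list, 9 of 12 genes were tested, and 8 had a lower fitted value (7653 of 14992 genes tested did). Dcn alone had a higher value, and 1 gene, Mgp, was called lower (1.35% of all genes were). Mgp had 3.10, 3.35 and 2.36 CPM with DMSO and 0.72 and 1.15 CPM with Sorbinil, so that all DMSO retinas were higher. Against DMSO, the list had a median of -0.80 for the first Sorbinil retina and 0.058 for the other. The summed level of the list, of which 72.8% was Igf2, was 102.6 to 128.8 CPM with DMSO and 61.8 and 107.1 CPM with Sorbinil. The part of fibroblast material in the type I and type III values was not tested.

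All 8 basement membrane collagens had a lower fitted value with Sorbinil (7653 of 14992 genes tested did). None passed the study's threshold, and only Col4a3 had an unadjusted p under 0.05 by edgeR. Without Sorbinil replicate 1, 3 of the 8 were lower. Col4a1 and Col4a2 encode the type IV chains of nearly all basement membranes and lie head to head on chromosome 8. Col4a1 measured 12.8, 13.9 and 10.4 CPM with DMSO and 4.51 and 13.4 CPM with Sorbinil. Col4a2 measured 18.5, 15.3 and 14.9 CPM with DMSO and 5.82 and 24.7 CPM with Sorbinil. Both were lowest in Sorbinil replicate 1, while Sorbinil replicate 3 was within the DMSO range for Col4a1 and above it for Col4a2. Their fitted log2 differences were -0.46 (standard error 0.45) and -0.09 (0.56). Leaving out Sorbinil replicate 1 turned them to 0.12 and 0.62, values that rest on a lone Sorbinil retina. With Sorbinil replicate 3 left out they were -1.46 and -1.48. They share 311 exon bases on opposite strands, and whether the counting used strand was not given in the sources used here.

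Col4a3, Col4a4 and Col4a5 encode the chains of the mature network best known from the kidney glomerulus, where their loss causes Alport syndrome. Col4a3 had 8.97, 9.17 and 12.5 CPM with DMSO and 6.58 and 5.95 CPM with Sorbinil (ENSMUSG00000079465, chr1:82564642-82699780, plus strand). Both Sorbinil retinas were below all DMSO retinas and close to each other, and the fitted value was -0.76 without Sorbinil replicate 1. It was lower by a log2 fold change of -0.70 (standard error 0.22). The unadjusted p was 0.0185 and the adjusted p 0.758 by edgeR's quasi-likelihood test, and it missed the study's 2-fold limit. It was -0.46 within the retinas with Y-linked counts and -1.07 within those without. Its head-to-head neighbour Col4a4 had 7.56, 5.30 and 10.2 CPM with DMSO and 6.62 and 6.09 CPM with Sorbinil, inside the DMSO range. Col4a5 was level, at 4.87, 4.63 and 5.33 CPM with DMSO and 4.13 and 5.17 CPM with Sorbinil.

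The ratio of Col4a3 to Col4a4 per length was 1.36, 1.98 and 1.41 with DMSO and 1.14 and 1.12 with Sorbinil. The ratio of Col4a3 to Col4a5 was 1.73, 1.86 and 2.20 with DMSO and 1.49 and 1.08 with Sorbinil. Both ratios were lower in both Sorbinil retinas than in any DMSO retina. Col4a3, whose own level separated the groups, is in both ratios, so they are no separate result. Of all chain pairs compared, only these and Col5a3 to Col5a1 separated the groups. Col4a3 and Col4a4 share 159 exon bases on opposite strands, and the same limit on strand holds. The ratio of Col4a1 to Col4a2, by contrast, ranged from 0.52 to 0.87 with overlapping groups.

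Col4a6, the partner of Col4a5 on the X chromosome, had 3.03, 3.20 and 2.68 CPM with DMSO and 1.41 and 3.96 CPM with Sorbinil, again on either side. Its fitted value of -0.14 was 0.42 without Sorbinil replicate 1. Col18a1 had 34.7, 30.8 and 29.6 CPM with DMSO and 12.5 and 34.1 CPM with Sorbinil, and its exons overlap the opposite-strand gene Slc19a1 by 896 bases. Its fitted log2 difference of -0.44 (standard error 0.41) was 0.11 without Sorbinil replicate 1. Col15a1, the other basement membrane collagen with an endostatin-like end, had 0.68, 0.58 and 0.65 CPM with DMSO and 0.40 and 0.57 CPM with Sorbinil. Both Sorbinil values were below all DMSO values, but Sorbinil replicate 3 only just, at 0.575 against 0.576 CPM, and the log2 fold change was -0.38 (standard error 0.34), or -0.13 without Sorbinil replicate 1.

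All 18 endothelial genes had a lower fitted value with Sorbinil, 11 were called lower (1.35% of all genes were), and their median difference from DMSO was -2.58 in the first Sorbinil retina and -0.82 in the other. The summed level of the list, of which 43.8% was Slc2a1, was 681.1 to 827.8 CPM with DMSO and 428 and 705.4 CPM with Sorbinil. Both Sorbinil retinas lay below every DMSO retina for 14 of the 18 genes (10.5% of all genes). Among them, Cldn5, which seals endothelial junctions, had 7.87, 7.67 and 4.99 CPM with DMSO and 1.37 and 3.06 CPM with Sorbinil, so that all DMSO retinas were higher. All 13 mural cell genes tested had a lower fitted value (7653 of 14992 genes tested did). Of them, 3 were called lower (1.35% of all genes were). The mural median against DMSO came to -1.29 for the first Sorbinil retina and -0.36 for the other. Vtn made up 94.0% of their summed level, at 1115, 1223 and 1381 CPM with DMSO and 1450 and 793.1 CPM with Sorbinil. The Sorbinil values of Vtn thus lay on either side of DMSO. Of the 20 other basement membrane genes, which include the laminins, nidogens and perlecan, 17 had a lower fitted value, none was called in either direction and 1 (Lamc1, higher, named for this count) had an unadjusted p under 0.05 by edgeR. Against DMSO, their median was -1.13 in the first Sorbinil retina and 0.26 in the other. The basement membrane genes thus differed between the Sorbinil retinas in direction, while the endothelial median was below DMSO in both, and the part of vessel content in the collagen values was not tested.

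In the group of other collagens, the called genes Col17a1 and Col14a1 were both lower with Sorbinil. Col17a1 encodes a transmembrane collagen that anchors epithelia at hemidesmosomes (ENSMUSG00000025064, chr19:47634783-47680533, minus strand). It had 1.85, 1.58 and 2.21 CPM with DMSO and 0.70 and 1.15 CPM with Sorbinil. Both Sorbinil retinas were below all DMSO retinas. This was a log2 fold change of -1.01 (standard error 0.34), or a 2.02-fold lower level, at an unadjusted p of 0.0272 and an adjusted p of 0.758 by edgeR's quasi-likelihood test. It was close to the 2-fold limit and was below it, at -0.69, without Sorbinil replicate 1 and, at -0.88, without DMSO replicate 3. Within the retinas with and without Y-linked counts it was -1.25 and -0.93.

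Col14a1 encodes a fibril-associated collagen with an interrupted helix (ENSMUSG00000022371, chr15:55171140-55384199, plus strand). It rested on few reads, at 21, 16 and 15 in the DMSO retinas and 1 and 9 in the Sorbinil retinas, which was 0.22, 0.20 and 0.27 CPM and 0.019 and 0.13 CPM. All Sorbinil values were below all DMSO values, and Sorbinil replicate 1 held a lone read. The fitted value was -1.49 on the log2 scale (standard error 0.70), at an unadjusted p of 0.0806 and an adjusted p of 0.758 by edgeR's quasi-likelihood test. Without Sorbinil replicate 1 it was -0.76, and leaving out any DMSO retina ended the call. Col26a1, named after its values were seen, was the remaining gene below DMSO in both Sorbinil retinas, at 2.27, 2.58 and 2.47 CPM with DMSO and 1.64 and 1.95 CPM with Sorbinil. Col19a1, likewise named afterwards, was above DMSO in both, at 3.03, 3.34 and 3.83 CPM with DMSO and 6.30 and 3.92 CPM with Sorbinil, the latter only just above DMSO replicate 3. The fitted values of Col26a1 and Col19a1 were -0.31 and 0.22 without Sorbinil replicate 1.

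Nearest the 2-fold limit, Col17a1 lay just inside, at -1.01, and Col1a1 just outside, at 0.92. Col3a1 was beyond the limit at 1.11 but had an unadjusted p of 0.358 by edgeR's quasi-likelihood test. Col7a1, the anchoring fibril collagen, named for its place near the limit, had a log2 fold change of 0.80, or 0.35 without Sorbinil replicate 1. Col7a1 had 0.57, 0.79 and 1.12 CPM with DMSO and 1.83 and 1.03 CPM with Sorbinil, and the groups overlapped.

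Col23a1 and the type IX chains followed the abundant pattern, in which Sorbinil replicate 1 was far below and Sorbinil replicate 3 was level with DMSO. Col23a1 had 67.4, 55.4 and 48.5 CPM with DMSO and 18.3 and 60.4 CPM with Sorbinil. Col9a1, a chain of the type IX collagen that coats vitreous fibrils, had 13.7, 17.2 and 19.2 CPM with DMSO and 5.35 and 17.6 CPM with Sorbinil. Its partners Col9a2 (6.36, 6.46 and 6.53 CPM with DMSO, 2.32 and 6.41 CPM with Sorbinil) and Col9a3 (4.98, 5.40 and 6.82 CPM, 1.98 and 5.95 CPM) did the same. The fitted log2 differences were between -0.56 and -0.53 for these 4 genes, none past the threshold. Without Sorbinil replicate 1 they were 0.0022 to 0.091, and without Sorbinil replicate 3 they were -1.64 to -1.47. The chains of type IX collagen kept their proportions while their levels fell apart by retina, with a Col9a1 to Col9a3 ratio per length of 2.41 to 2.84 and a Col9a1 to Col9a2 ratio of 1.32 to 1.80 over all 5 retinas. Glul, the glutamine synthetase of Müller glia, had 3629, 3333 and 3352 CPM with DMSO and 1195 and 3458 CPM with Sorbinil, so that the same retina was low. The summed Müller list had 6246 to 7276 CPM with DMSO and 2410 and 6711 CPM with Sorbinil, and its part in these collagen values was not tested.

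Type VIII collagen, a short-chain collagen that forms hexagonal networks, followed another order of retinas. Col8a1 had 9.58, 8.03 and 20.6 CPM with DMSO and 4.78 and 15.7 CPM with Sorbinil. Col8a2 had 9.65, 7.79 and 21.7 CPM with DMSO and 5.29 and 13.0 CPM with Sorbinil. Both genes were highest in DMSO replicate 3 and next in Sorbinil replicate 3, and the ratio of the chains per length stayed between 0.58 and 0.78. Rpe65, the retinoid isomerase of the pigment epithelium, had 7.84, 7.81 and 22.2 CPM with DMSO and 6.37 and 11.1 CPM with Sorbinil. Pmel, a melanosome protein, had 3.47, 4.05 and 13.4 CPM with DMSO and 2.45 and 6.82 CPM with Sorbinil. Rpe65 and Pmel thus had their highest values in the same retinas, but not all genes of the pigmented-cell lists did. Mitf had 8.55, 7.19 and 7.27 CPM with DMSO and 7.97 and 9.44 CPM with Sorbinil. Best1 had 0.38, 0.40 and 0.31 CPM with DMSO and 0.038 and 0.46 CPM with Sorbinil. Neither was high in DMSO replicate 3. Cryaa, a lens crystallin, was highest in DMSO replicate 3 and Sorbinil replicate 3, at 0.17, 0.20 and 27.3 CPM with DMSO and 0.91 and 16.8 CPM with Sorbinil. The median of the 12 pigment epithelium genes against the DMSO mean was 0.82 in DMSO replicate 3, -0.82 in Sorbinil replicate 1 and 0.011 in Sorbinil replicate 3, and none was called. Their summed level was 803.2 to 1083 CPM with DMSO and 419 and 948.8 CPM with Sorbinil, but 47.5% of it was Rlbp1, which is also a Müller glia gene and, at 549.7, 401.9 and 445 CPM with DMSO and 190 and 427.8 CPM with Sorbinil, did not follow Rpe65. The part of pigmented cells or lens in the type VIII values was not tested. Within the retinas without Y-linked counts, Sorbinil replicate 3 was below DMSO replicate 3 by 0.39 (Col8a1) and by 0.74 (Col8a2) on the log2 scale, although both were above DMSO replicates 1 and 2. With a sex term, added after seeing the data, the fitted log2 differences of Col8a1 and Col8a2 were -0.67 and -0.73, compared to -0.31 and -0.51 without it. Leaving out Sorbinil replicate 1 instead turned them to 0.32 and 0.016.

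The type VI chains Col6a1, Col6a2 and Col6a3 form beaded filaments and were named after their values were seen. Col6a1 had 3.06, 3.09 and 2.25 CPM with DMSO and 1.08 and 3.34 CPM with Sorbinil, and the Col6a1 to Col6a2 ratio per length ranged from 2.38 to 3.27. Col6a3 had 0.14, 0.11 and 0.61 CPM with DMSO and 0.038 and 0.78 CPM with Sorbinil. It was high in DMSO replicate 3 and Sorbinil replicate 3, rested on 14, 9, 34, 2 and 53 reads in the same order of retinas, and the Col6a1 to Col6a3 ratio ranged from 7.58 to 58.7.

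**Figure D4:**
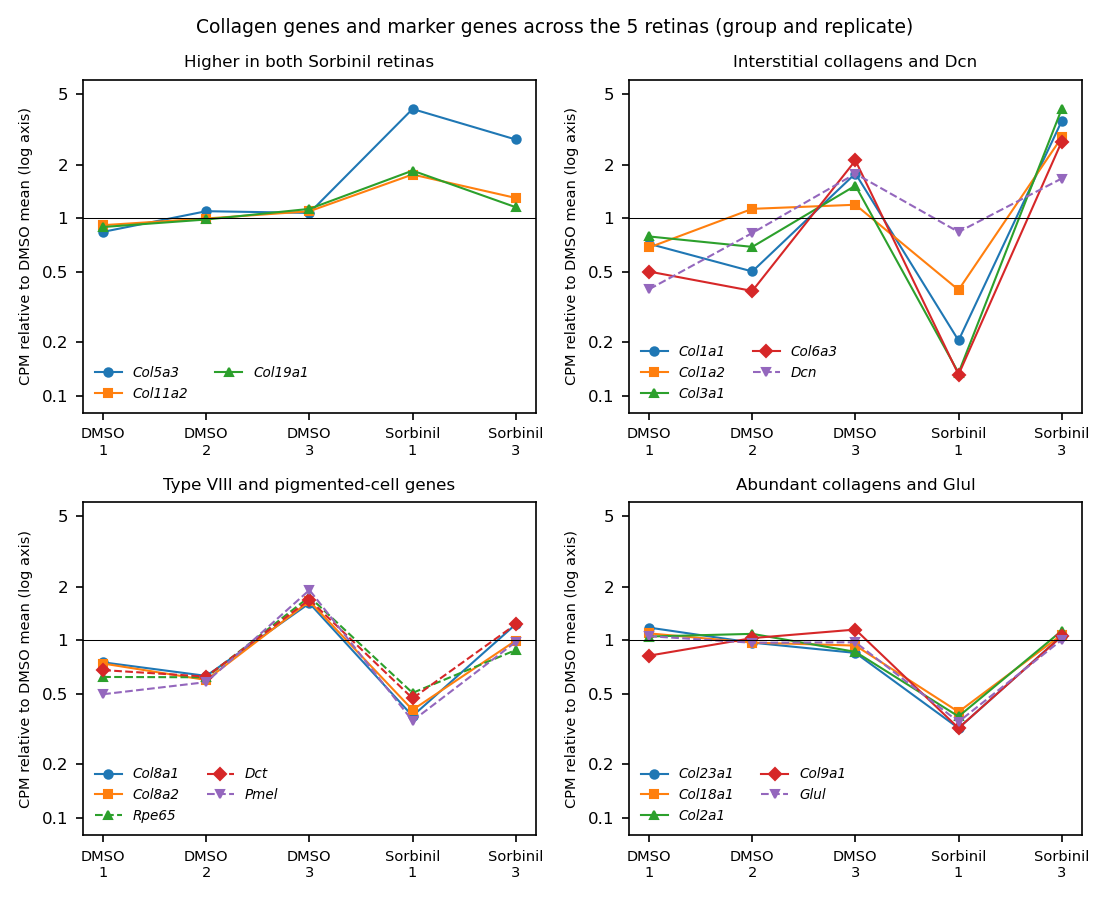
CPM of selected collagens (solid lines) and marker genes (dashed lines) in each retina, divided by the mean of the 3 DMSO retinas (log axis). Col5a3, Col11a2 and Col19a1 are above 1 in both Sorbinil retinas. Col1a1, Col1a2, Col3a1 and Col6a3 are lowest in Sorbinil replicate 1 and highest in Sorbinil replicate 3, the type VIII genes peak in DMSO replicate 3 as Rpe65, Dct and Pmel do, and the abundant collagens dip with Glul in Sorbinil replicate 1.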

How the data were processed

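The authors trimmed the reads and mapped them to GRCm39 in CLC Genomics Workbench with default settings, and deposited a table of raw counts, as whole numbers for each gene and retina. The annotation, the treatment of multi-mapped reads and the use of strand were not given in the sources used here. The members and gene lists were chosen with earlier results of these data known. Of 25655 genes, the 14992 that passed the filter were fitted in R 4.3.3 with edgeR 4.0.16: filterByExpr by group (minimum count 10), TMM, glmQLFit and glmQLFTest over all 5 retinas, with Benjamini-Hochberg adjustment. Log2 CPM used a prior count of 2. Without molecular identifiers, counting error understates the error of a value, and p-values measure only the spread between these samples. Gene models, exon lengths and sequences came from GENCODE vM39, in which all 44 collagens matched. Genes named were the basement membrane members, the called members, the 5 highest of the fibrillar and other groups and their trimer partners. Called genes of the cell type lists were named by smallest p, and the markers printed from those lists were picked with their values known. Other genes outside the rule are marked where they appear. Alternatives were other scalings and filters, DESeq2 1.42.0, a replicate block, thresholds, leaving out each retina and, for levels, coding length in place of protein length. The fits were tested on simulated data. The replicate numbers do not pair the retinas by label.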

Additional observations from a re-analysis of the deposited data

How the results depend on the processing

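The count of 2 collagens called lower became 1 with library-size scaling, with at least 10 counts in every retina, with the DESeq2 Wald test, with the replicate block and at an unadjusted p of at most 0.05, and ran from 0 to 23 when a retina was left out (0 without DMSO replicate 3 or Sorbinil replicate 1, 23 without Sorbinil replicate 3). With no fold limit, 3 were lower and 3 higher, and the share over all genes is not given here. The count of 1 called higher ran from 1 to 4 (4 without Sorbinil replicate 1). Col5a3 was called in each fit. The fibrillar median of 0.19 was -0.24 with the replicate block, -0.22 with the sex term and -1.25 to 0.41 with a retina left out. The basement membrane median of -0.32 was -0.41 with library-size scaling, -0.47 with the replicate block, -0.47 with the sex term and -0.87 to 0.096 with a retina left out. The median of other collagens, -0.33, was -0.65, -0.63 and -1.41 to 0.091 in the last 3 settings. Col1a1, Col1a2 and Col3a1 turned to -2.26, -1.34 and -2.85 without Sorbinil replicate 3, the low ends of ranges up to 1.85, 1.53 and 2.08 without Sorbinil replicate 1. The causes were not tested.

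The replicate block joined same-numbered retinas, whose deviations from their group had correlations of -0.24 for number 1 and -0.13 for number 3. Each value recurred with its sign turned against the other Sorbinil retina. The check therefore cannot tell whether same-numbered retinas belong together. DMSO replicate 3 and Sorbinil replicate 3 shared high lens genes and had almost no Y-linked counts. With 1 Sorbinil retina left, the fit assumes that it varies like the DMSO retinas. The sex term was chosen after seeing the data. Library-size scaling moved the median of all genes to -0.11 from -0.0078. Among the called members, low counts limit Col14a1 most.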

Other observations

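The genes that build and turn over collagen were read from lists of known function, chosen with earlier results of these data known. Of 24 collagen biosynthesis genes, 20 had a lower fitted value with Sorbinil (7653 of 14992 genes tested did). None was called by edgeR, and 1 had an unadjusted p under 0.05 by edgeR (Tmem38b, an endoplasmic reticulum channel needed for collagen secretion, higher). Serpinh1, the collagen-specific chaperone, had 18.5, 18.3 and 15.7 CPM with DMSO and 7.86 and 17.7 CPM with Sorbinil, so that Sorbinil replicate 1 alone was low. Tmem38b had 20.1, 19.97 and 22.8 CPM with DMSO and 37.1 and 26.1 CPM with Sorbinil, both above DMSO. Serpinh1 and Tmem38b were named after their values were seen. The list medians against the DMSO mean were -0.69 in Sorbinil replicate 1 and -0.044 in Sorbinil replicate 3.

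Of all 14992 genes tested, 7653 had a lower fitted value with Sorbinil. Of 15 processing and crosslinking genes tested, 12 were lower, and of 10 collagen receptors 8. Of 12 breakdown genes 10 were lower, and of 20 transforming growth factor beta and matrix genes 16. None of these was called by edgeR in either direction or had an unadjusted p under 0.05. Their medians were -1.01, -1.04, -1.08 and -1.02 in Sorbinil replicate 1 and 0.075, 0.029, -0.018 and 0.076 in Sorbinil replicate 3, beside -1.24 and 0.24 for the collagens. Ctsk, the lysosomal collagenase cathepsin K, was singled out after its values were seen. It had 6.68, 8.44 and 7.88 CPM with DMSO and 14.9 and 5.01 CPM with Sorbinil, highest in the retina where most collagens were lowest. Ctsk was an exception in its list. Of the 12 breakdown genes, 8 lay below every DMSO retina in Sorbinil replicate 1 (41.7% of all genes did) and 2 above (43.4% did). The part of breakdown in the collagen values was not tested.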
